A study of Caenorhabditis elegans with 45 samples.

Results

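The egl-9 hif-1 double mutant of the nematode Caenorhabditis elegans lacks both an oxygen-sensing enzyme, EGL-9, and the transcription factor that this enzyme keeps in check, HIF-1. Its 5 libraries were compared with the 5 libraries of the wild-type strain N2, which makes 10 of the 45 libraries of the study. Libraries were chosen by the genotype in their labels, replicates A to E of each. The double mutant is strain CB6088, with the alleles egl-9(sa307) and hif-1(ia4), and N2 carries neither. All libraries were made from polyadenylated RNA of whole hermaphrodites, picked as L4 larvae and collected 6 h later as young adults after growth on OP50 bacteria at 20 °C in 20% oxygen. Other genotypes serve only as references here: the egl-9(sa307) single mutant (strain JT307), and the smg-1(n6597) mutant (strain MT26974) and the smg-2(r863) mutant (strain MT27410), each alone and with egl-9 hif-1 (strains MT27177 and MT27180). The remaining genotypes, smg-1 egl-9 (strain MT26971) and smg-2 egl-9 (strain MT26461), entered the statistical model and 1 of the plots. SMG-1 and SMG-2 are needed for nonsense-mediated decay (NMD), the degradation of messenger RNAs with premature stop codons.

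EGL-9 is a prolyl hydroxylase that uses oxygen to mark HIF-1 for destruction through the ubiquitin ligase subunit VHL-1. In egl-9 mutants HIF-1 is stable at normal oxygen and switches on genes of the response to low oxygen and to hydrogen sulfide. In the double mutant that activation cannot take place, and the low HIF-1 activity of a normally oxygenated worm is missing too. Each genotype is 1 strain and a hif-1 single mutant was not analysed here, so effects of the hif-1 mutation, of the egl-9 mutation without HIF-1 and of other differences between the strains cannot be told apart.

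Total counts were 15415072 to 33169699 in N2 and 13970974 to 27396660 in egl-9 hif-1. Levels are given as read counts scaled to library size with TMM factors (CPM), as mean ± SD of 5 libraries. Differences were tested with the quasi-likelihood test of edgeR on all 45 libraries over 16053 genes. A gene is referred to as called when its Benjamini-Hochberg adjusted p was under 0.05, and log2 fold changes are given with their standard error. On the first principal component of the 10 libraries, which held 43.5% of their variance, the N2 libraries lay between -46.8 and -20.1. The double mutants lay at -3.63 (A), 30.3 (B), 81.2 (C), 3.18 (D) and 44.9 (E), so that replicate C stood farthest from N2. Counts of called members of gene lists are therefore also given without it where they differ, beside 2.95% (higher) and 3.13% (lower) of all tested genes in that fit. With C included, these shares were 9.65% and 4.85%. By chi-square per degree of freedom between the counts of pairs of libraries, C and E were close to each other (21.3). Each was farther from A, B and D (51.6 to 88.5), and the fit without C still holds E.

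The mutated genes were examined first. The hif-1 gene (WBGene00001851, chromosome V, 20780407 to 20785260, plus strand, WBcel235) was at 166, 163, 172, 153 and 177 CPM in N2 A to E. In egl-9 hif-1 A to E it was at 36, 26.2, 20.2, 26.4 and 15.8 CPM. Every double mutant library was below every N2 library, with a log2 fold change of -2.74 (SE 0.12, edgeR adjusted p 2.1e-20), or 6.68-fold lower. In the smg backgrounds the hif-1 level was higher in the mutant instead. It was 192.1 ± 15.9 CPM in smg-1 and 323 ± 44.5 CPM when egl-9 hif-1 was added, and 191.8 ± 9.4 CPM in smg-2 and 337 ± 34.9 CPM when egl-9 hif-1 was added. The log2 effect differed from that with NMD intact by 3.49 (SE 0.17, edgeR adjusted p 4.5e-19) and 3.55 (SE 0.17, edgeR adjusted p 2.3e-19).

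The egl-9 gene (WBGene00001178, chromosome V, 10468517 to 10476915, plus strand) was at 20.7, 25.4, 28.3, 22.5 and 25.3 CPM in N2 A to E, and at 20.6, 19.7, 12.2, 17.8 and 14.8 CPM in the double mutant. The groups were close, with the highest double mutant library just under the lowest N2 library, and the log2 fold change was -0.52 (SE 0.12, edgeR adjusted p 0.0041). When only the libraries compared were fitted, this call was lost (edgeR adjusted p 0.066). The egl-9 single mutant had 104 ± 7.62 CPM of the same transcript.

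HIF-1 target genes were not called above wild type in the double mutant, and some were called below it. Of 8 genes commonly used as HIF-1 targets, 0 were called higher and 2 were called lower, beside 9.65% and 4.85% of all tested genes. With 1 library left out, 1 to 3 were called lower. The median log2 fold change of the 8 was -0.58, whereas that of all tested genes was 0.004. In the egl-9 single mutant all 8 were called higher (11.9% of all genes) with a median of 4.90.

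The nuclear receptor gene nhr-57, a standard reporter of HIF-1 activity, was at 6.16, 5.58, 6.13, 5.39 and 6.33 CPM in N2 A to E and at 2.14, 3.37, 2.51, 2.52 and 2.39 CPM in the double mutant. The groups did not overlap, with a log2 fold change of -1.19 (SE 0.24, edgeR adjusted p 6.2e-04). Reads of nhr-57 may be shared with lgc-1, which overlaps it on the same strand. The sulfide:quinone oxidoreductase gene sqrd-1, which detoxifies hydrogen sulfide, was at 2.38 to 3.03 CPM in N2 and at 0.314 to 0.850 CPM in the double mutant. Its log2 fold change was -2.38 (SE 0.73, edgeR adjusted p 0.026), a call that was lost without egl-9 hif-1 B (0.0523) or C (0.0729). The same gene reached 590 ± 59.9 CPM in egl-9.

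The other 6 targets were not called, and their values spanned both directions. The glutathione S-transferase gene gst-19 had 9, 8, 5, 7 and 10 counts in N2 A to E and 1 count in all 5 double mutant libraries together. It was not called in edgeR (adjusted p 0.079), but was in DESeq2 (adjusted p 0.0017). The cyanoalanine synthase gene cysl-2 was at 22.9 to 37 CPM in N2 and 13.7 to 19.9 CPM in the double mutant, groups that did not overlap (log2 fold change -0.86, SE 0.36, edgeR adjusted p 0.093). For cysl-2 the call was made when only the libraries compared were fitted (edgeR adjusted p 0.0059). The log2 fold changes were -0.28 (SE 0.12) for the cytochrome P450 gene cyp-36A1, -0.30 (SE 0.21) for rhy-1, a regulator of HIF-1, 0.05 (SE 0.13) for the collagen prolyl hydroxylase gene phy-2 and 0.44 (SE 0.20) for the hypoxia-induced gene F22B5.4. Of these, cyp-36A1 lay near the threshold (edgeR adjusted p 0.096), and was called under DESeq2 size factors (0.0479) and without egl-9 hif-1 C (0.038).

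Among all tested genes, rips-1 had the smallest p-value of the comparison. It encodes a putative methyltransferase of the hydrogen sulfide response (WBGene00019963, chromosome V, 3772021 to 3774609, plus strand). Levels were 88.6, 89.7, 102, 86.5 and 101 CPM in N2 A to E, and 0.550, 0.742, 1.57, 1.1 and 1.86 CPM in the double mutant. This is a 78.4-fold lower mean level (log2 fold change -6.29, SE 0.28, edgeR adjusted p 1.5e-20). In egl-9 the gene was at 1251 ± 217 CPM, above N2 by 3.74 in log2. Its neighbour cysl-3, a cysteine synthase-like gene on the opposite strand whose end overlaps rips-1, was at 37.5 to 51 CPM in N2 and 16.3 to 21.3 CPM in the double mutant (log2 fold change -1.22, SE 0.12, edgeR adjusted p 4.1e-10). Whether strand was used in counting is not given in the sources used here, so reads of the overlap cannot be assigned for either gene.

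Some other genes that stood far above wild type in egl-9 were also below it in the double mutant. Others, described further on, were above it in both, among them ftn-1, lys-7, nspe-6 and F01D5.1. The phosphoenolpyruvate carboxykinase gene pck-1, which acts in gluconeogenesis, was at 92.9, 75.7, 87.8, 106 and 80.1 CPM in N2 A to E and at 32.3, 37.2, 44.1, 37.1 and 42.4 CPM in the double mutant. The groups did not overlap, with a log2 fold change of -1.2 (SE 0.19, edgeR adjusted p 3.9e-05), beside a log2 difference of 4.15 in egl-9. The aspartyl protease gene asp-12 fell from 36 ± 4.30 to 10.7 ± 2.01 CPM (-1.75, SE 0.24, edgeR adjusted p 1.9e-06), beside 3.43 in egl-9. In the smg-1 and smg-2 backgrounds its log2 effect was higher by 2.46 and 2.91. Both differences are larger than this fall, so asp-12 was not lower there. The globin gene glb-1 fell from 32.4 ± 7.41 to 21.3 ± 3.13 CPM (-0.60, SE 0.18, edgeR adjusted p 0.025), beside 3.36 in egl-9. The glb-1 call was lost without egl-9 hif-1 C (0.0614), N2 A (0.0706) or N2 D (0.0849). Since egl-9 and the double mutant are set against the same N2 libraries, these values stand side by side and were not related to each other.

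**Figure D1:**
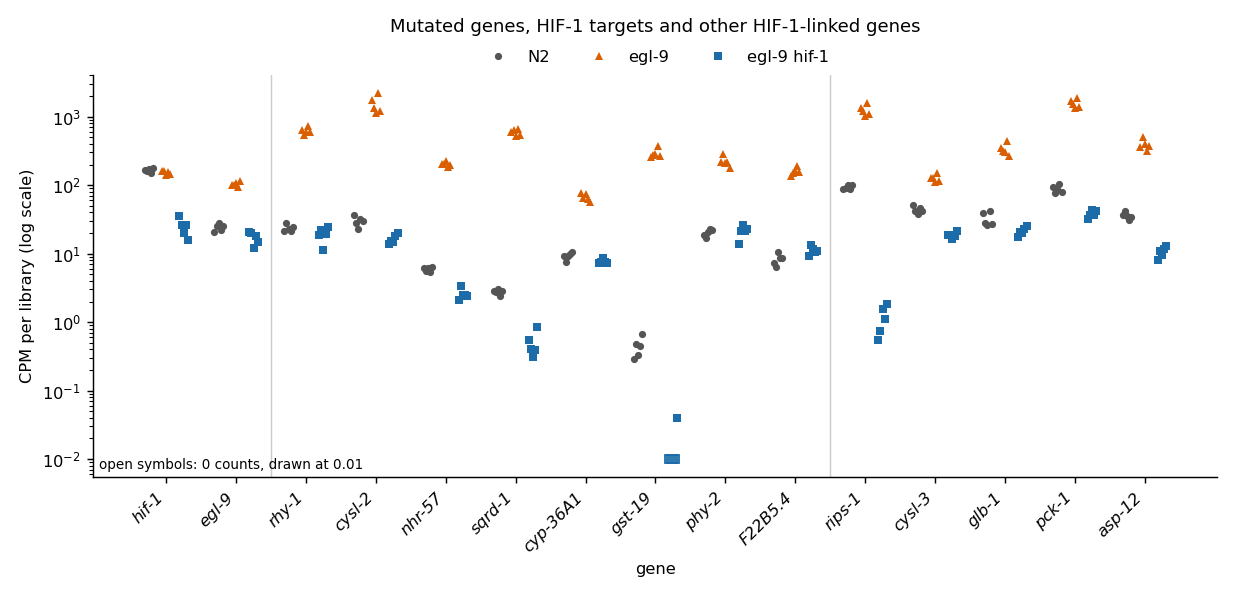
Levels of the mutated genes, the 8 HIF-1 targets and 5 further HIF-1-linked genes in each library of N2 (circles), egl-9 (triangles) and egl-9 hif-1 (squares), in CPM on a log scale, with libraries at 0 counts drawn as open symbols. For rips-1 the egl-9 hif-1 libraries lie between 0.550 and 1.86 CPM and the N2 libraries at 86.5 CPM or above.

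Within the list of 20 genes of hydrogen sulfide and cysteine metabolism, 6 were called higher and 3 lower, beside 9.65% and 4.85% of all tested genes. The lower ones were rips-1, cysl-3 and sqrd-1. One of the higher ones was cth-1, which encodes cystathionine gamma-lyase, at 13.5 ± 2.54 CPM in N2 and 25.9 ± 10.4 CPM in the double mutant (log2 fold change 0.94, SE 0.22, edgeR adjusted p 0.0039). Library C held its highest value, 42.7 CPM, and the groups overlapped. Without C, 0 members were called higher, cth-1 included (edgeR adjusted p 0.0749), and 2 lower.

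Genes of iron storage were higher and the gene of an iron importer was lower in the double mutant than in wild type. Ferritin stores iron and SMF-3 takes it up, and in C. elegans HIF-1 is known to repress the ferritin genes and to raise smf-3 when iron is low. The ferritin gene ftn-1 (WBGene00001500, chromosome V, 7546468 to 7547579, minus strand) was at 2.79, 2.55, 4.48, 3.79 and 2.67 CPM in N2 A to E. In the double mutant it was at 74.5, 77.2, 92.6, 81.9 and 69.3 CPM, 24.5-fold higher (log2 fold change 4.61, SE 0.23, edgeR adjusted p 4.2e-19). The second ferritin gene, ftn-2, was at 269, 298, 336, 407 and 370 CPM in N2 and 660, 796, 769, 683 and 784 CPM in the double mutant. Its log2 fold change was 1.14 (SE 0.10, edgeR adjusted p 9.2e-11). The divalent metal transporter gene smf-3 (WBGene00004878, chromosome IV, 2618869 to 2625503, plus strand) was at 4.35, 3.68, 4.74, 3.27 and 4.8 CPM in N2. In the double mutant it was at 0.489, 0.285, 0.314, 0.516 and 0.0809 CPM, with a log2 fold change of -3.67 (SE 0.34, edgeR adjusted p 1.7e-10).

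No library of the double mutant reached the range of wild type for ftn-1, ftn-2 or smf-3. The egl-9 single mutant, in which hif-1 is intact, differed from N2 in the same directions. Its log2 fold changes were 6.00 (SE 0.24) for ftn-1, 1.03 (SE 0.10) for ftn-2 and -4.30 (SE 0.36) for smf-3. In egl-9, ftn-1 was at 207 ± 26.5 CPM, ftn-2 at 686 ± 55.1 CPM and smf-3 at 0.186 ± 0.120 CPM.

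The same 3 genes were examined in worms without NMD, in libraries that share nothing with the 10 above. Relative to smg-1 alone, smg-1 egl-9 hif-1 had log2 fold changes of 4.63 (SE 0.23) for ftn-1, 1.47 (SE 0.10) for ftn-2 and -4.22 (SE 0.35) for smf-3. Relative to smg-2 alone, those of smg-2 egl-9 hif-1 were 5.25 (SE 0.23), 1.41 (SE 0.10) and -4.59 (SE 0.36). All 6 values were called, with edgeR adjusted p-values of 1.1e-11 or less. None of the 6 effects differed from that with NMD intact at an adjusted p under 0.05, the smallest edgeR adjusted p of the 6 differences being 0.16.

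**Figure D2:**
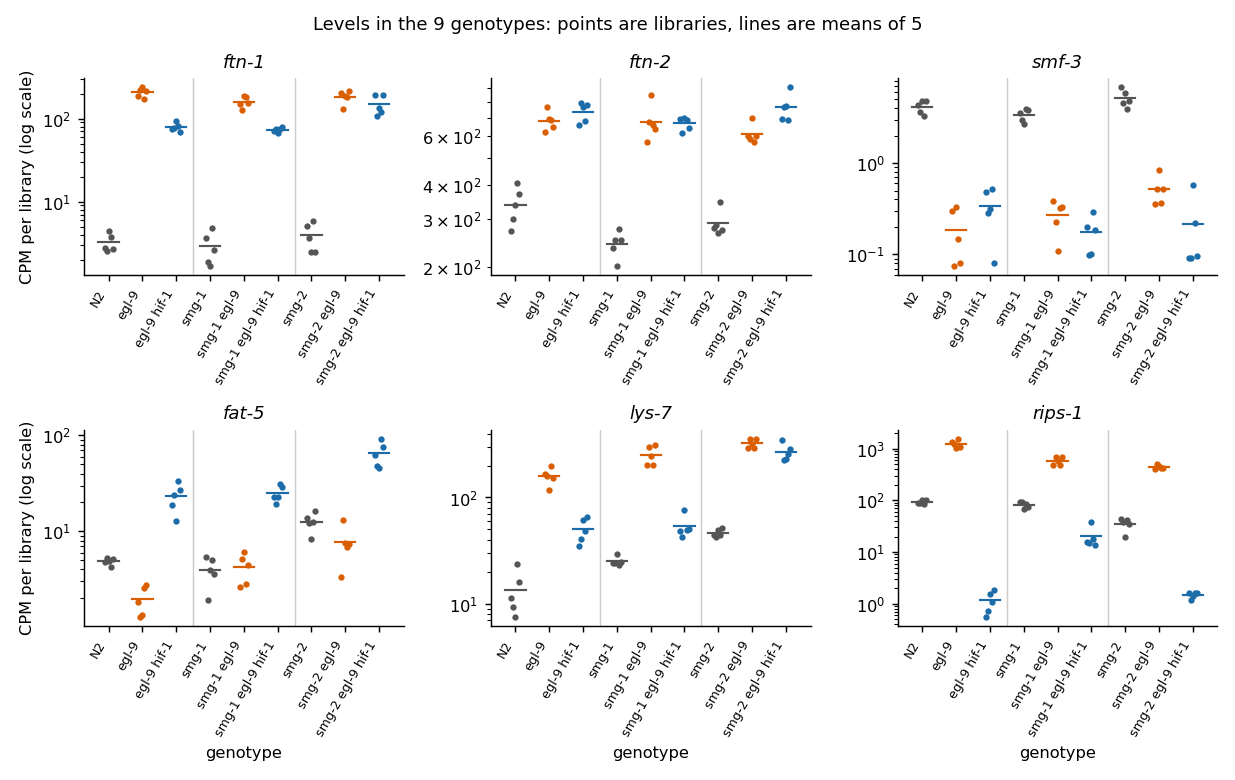
CPM on a log scale of 6 genes called the same way in all 3 comparisons of egl-9 hif-1 state, in each of the 9 genotypes (grey, HIF-1 pathway intact; orange, egl-9; blue, egl-9 hif-1), with each library as a point and the mean of 5 as a line. Of the 6, fat-5 is the gene that is higher with egl-9 hif-1 and lower with egl-9 alone when NMD is intact, and rips-1 is above wild type in egl-9 and below it in egl-9 hif-1.

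Of the 13 tested genes of iron and heme handling, 2 were called higher, the ferritin genes, and 6 were called lower, or 2 and 4 without egl-9 hif-1 C. The shares of all tested genes were 9.65% and 4.85%. Besides smf-3, these included the heme transporter gene hrg-4, at 9.89 to 12.7 CPM in N2 and 4.31 to 7.09 CPM in the double mutant (log2 fold change -0.99, SE 0.18, edgeR adjusted p 1.6e-04). For hrg-4 the effect differed from those in the smg-1 and smg-2 backgrounds, where the log2 fold changes were 0.35 (SE 0.17) and 0.13 (SE 0.17).

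Across all 16053 genes, 2327 were called (14.5%), of which 1549 were higher (9.65%) and 778 lower (4.85%) in the double mutant. At least 2-fold changes were called for 641 genes (3.99%), of which 537 (3.35%) were higher and 104 (0.648%) lower. Groups that did not overlap at all were found for 593 genes with higher levels (3.69%) and 515 with lower levels (3.21%), and 543 and 381 of these were also called. The split depends on scaling: under DESeq2 size factors, which shifted all log2 fold changes by -0.04, 1389 genes were called higher and 1200 lower. It also rests on single libraries. Without egl-9 hif-1 C, 474 genes were called higher and 503 lower, and without N2 B 903 were called higher and 457 lower. Without egl-9 hif-1 E 939 were called higher, and the number called lower was 1277 without egl-9 hif-1 A and 1784 without N2 C. In every one of the 10 fits that left out 1 library, 449 higher and 323 lower genes were called.

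**Figure D3:**
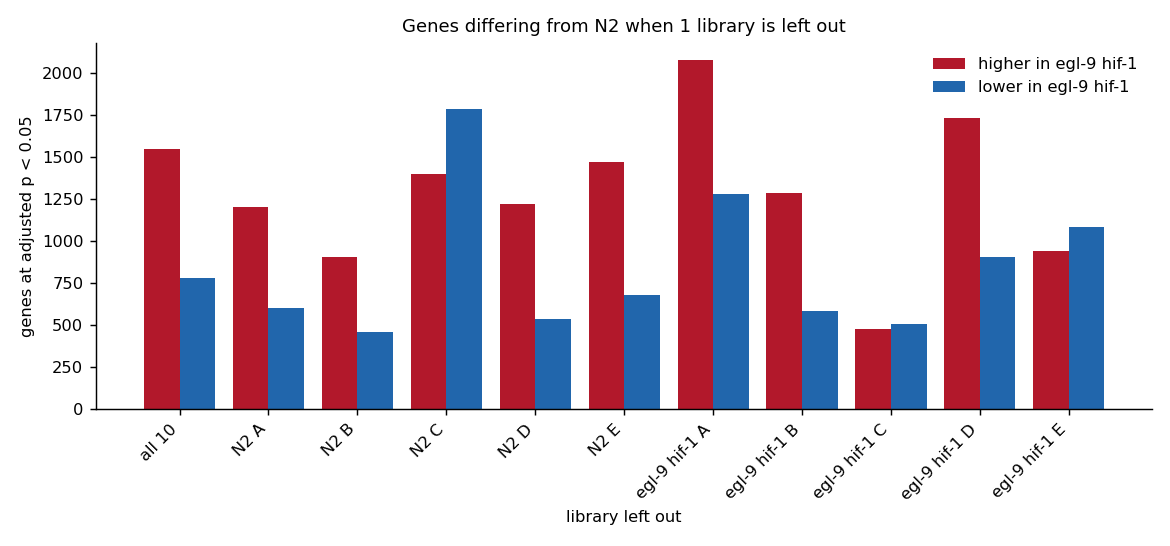
Number of genes called higher (red) and lower (blue) in the double mutant than in wild type with all 10 libraries and with each library left out in turn. The counts drop to 474 higher and 503 lower without egl-9 hif-1 C and rise to 2076 higher without egl-9 hif-1 A.

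Besides ftn-1, the strongest increases by p-value were in genes of varied roles. They were picked among called genes with at least 2-fold change, groups that do not overlap and a mean of at least 5 CPM in the higher group. Their lack of overlap is therefore part of the choice and not a further result. The asparagine synthetase gene asns-2 (WBGene00019730, chromosome X, 8748434 to 8750941, minus strand) was at 28.2, 25, 33, 28.2 and 23.3 CPM in N2 A to E and at 215, 221, 280, 175 and 234 CPM in the double mutant. It was 8.17-fold higher (log2 fold change 3.03, SE 0.14, edgeR adjusted p 1.1e-19), with no overlap, while egl-9 alone had 23.5 ± 1.89 CPM. The effect on asns-2 was present with smg-2 (2.35, SE 0.14) and not called with smg-1 (0.19, SE 0.14), and it differed from that with NMD intact in both (edgeR adjusted p 0.014 and 3.4e-14).

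Further increases past 2-fold were those of scb-1, a gene named for the response to bleomycin, and members of the F-box, ABC transporter and pud families. For scb-1 the mean was 3.80 ± 0.677 CPM in N2 and 15.2 ± 0.594 CPM in the double mutant (log2 fold change 1.98, SE 0.12, edgeR adjusted p 8.4e-17). It was higher in both smg backgrounds too, by 0.97 (SE 0.11) and 0.50 (SE 0.11), effects smaller than with NMD intact. The gene overlaps math-33 on the opposite strand. The protein phosphatase gene pph-7, which overlaps parp-1 on the opposite strand, rose from 7.06 to 11.6 CPM in N2 libraries to 23.2 to 31.9 CPM in the double mutant (1.57, SE 0.11, edgeR adjusted p 1.2e-13). The F-box gene fbxa-192 rose by 1.77 (SE 0.17, edgeR adjusted p 4.8e-10) in log2, and pgp-5, which encodes a P-glycoprotein, by 2.14 (SE 0.21, edgeR adjusted p 4.9e-10).

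For pph-7 and pgp-5 the wild-type level was below that of the NMD mutants, and the double mutant lay between them or beside them. The pph-7 level was 8.83 ± 1.87 CPM in N2, 26.3 ± 3.30 in egl-9 hif-1, 47.97 ± 7.22 in smg-1 and 52.7 ± 3.13 in smg-2. The pgp-5 level was 28.2 ± 10.17, 124 ± 37.9, 105 ± 12.4 and 124 ± 28.8 CPM in the same order. Within the smg backgrounds pph-7 was not called, and pgp-5 was called with smg-2 (0.52, SE 0.20, edgeR adjusted p 0.043) but not with smg-1 (-0.09, SE 0.20). N2 and the smg mutants were not tested against each other here.

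The pud genes encode small proteins first found at higher levels in daf-2 insulin receptor mutants, and they lie side by side on chromosome V. The log2 fold changes were 3.94 (SE 0.38) for pud-4, 4.07 (SE 0.40) for pud-3 and 3.85 (SE 0.37) for pud-2.2, each with an edgeR adjusted p of 5.1e-10 or less. In N2 A to E pud-4 was at 1.17, 0.771, 0.791, 3.47 and 0.733 CPM, and in the double mutant at 9.96, 23.8, 21, 24.5 and 26.3 CPM. N2 D was the highest wild-type library and egl-9 hif-1 A the lowest double mutant, and the groups did not overlap. All 3 genes were also higher with smg-2 (3.47, 3.61 and 2.93) and not called with smg-1 (0.27, 0.32 and 0.34), and in egl-9 alone they were lower than in N2. Copies of pud genes are near-identical, so the division of reads between them is uncertain.

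Besides hif-1, rips-1 and smf-3, the strongest decreases by p-value included haf-6, ckb-4, asp-8, smd-1, F44G3.7 and C17F4.7, none of which was called in either smg background. The genes from haf-6 to C17F4.7 were picked by the same rule as the increases, groups that do not overlap included. The half-molecule ABC transporter gene haf-6 (WBGene00001816, chromosome I, 1162880 to 1175809, minus strand) was at 40.6, 41.6, 40.9, 45.2 and 46.5 CPM in N2 A to E and at 7.15, 8.45, 3.14, 3.81 and 3.80 CPM in the double mutant. It was 8.11-fold lower (log2 fold change -3.02, SE 0.15, edgeR adjusted p 2.5e-19). In egl-9 it was at 32.8 ± 2.2 CPM, and in the 4 smg genotypes with and without egl-9 hif-1 its means lay between 37.2 and 45.3 CPM. The effect on haf-6 differed by 3.13 (SE 0.20) in smg-1 and 2.74 (SE 0.20) in smg-2 from that with NMD intact. The gene overlaps Y48G8AL.7 on the opposite strand.

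The choline kinase gene ckb-4 was at 8.06, 6.46, 6.33, 6.55 and 7.40 CPM in N2 A to E and at 2.14, 1.83, 1.25, 1.87 and 1.38 CPM in the double mutant (log2 fold change -2.04, SE 0.12, edgeR adjusted p 2.8e-16). In egl-9, ckb-4 was at 6.71 ± 0.624 CPM, within the range of N2, whereas haf-6 was below N2 there (log2 fold change -0.39, SE 0.13, edgeR adjusted p 0.020). The aspartyl protease gene asp-8 fell from 31 ± 5.69 to 4.96 ± 1.07 CPM (-2.64, SE 0.17, edgeR adjusted p 4.1e-15). The genes F44G3.7 (-1.91, SE 0.24, edgeR adjusted p 2.1e-07) and C17F4.7 (-1.61, SE 0.21, edgeR adjusted p 5.6e-07) also fell. For asp-8, F44G3.7 and C17F4.7 each effect differed from those in both smg backgrounds.

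A pair of enzymes of polyamine synthesis moved in opposite directions. S-adenosylmethionine decarboxylase, encoded by smd-1, supplies the aminopropyl groups that spermidine synthase, encoded by spds-1, transfers. The smd-1 level was 502, 519, 544, 580 and 594 CPM in N2 A to E and 217, 243, 227, 207 and 193 CPM in the double mutant (log2 fold change -1.33, SE 0.09, edgeR adjusted p 8.8e-15). The spds-1 level was 16.12, 10.02, 10.5, 12.7 and 12.1 CPM in N2 and 25.2, 25.3, 24.2, 19.03 and 25.5 CPM in the double mutant (0.95, SE 0.10, edgeR adjusted p 3.3e-09). Neither pair of groups overlapped. Of the 10 tested genes of polyamine and S-adenosylmethionine synthesis, 2 were called higher and 1 lower, or 1 and 1 without egl-9 hif-1 C. The shares of all tested genes were 9.65% and 4.85%. In the NMD mutants smd-1 was at 1250 ± 122 CPM (smg-1) and 1397 ± 113 CPM (smg-2), and spds-1 at 43.3 ± 4.05 and 44.3 ± 3.66 CPM, differences from N2 that were not tested. With egl-9 hif-1 in the smg-1 background they were at 1381 ± 123 and 40.6 ± 2.16 CPM, and neither was called. In the smg-2 background spds-1 was called lower (-0.32, SE 0.10, edgeR adjusted p 0.0097), the opposite direction.

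Genes of propionate breakdown were lower as a group. Propionate is broken down through a canonical route that needs vitamin B12 and, when the vitamin is scarce, through a shunt that starts with ACDH-1. Of the 10 tested genes of these routes, 9 were called lower and 0 higher, beside 4.85% and 9.65% of all tested genes. Their median log2 fold change was -0.47. Without egl-9 hif-1 C, 9 were called lower as well, and when other libraries were left out, 7 to 10. Of the shunt, hach-1, which encodes a hydroxyacyl-CoA hydrolase, was at 560, 466, 463, 584 and 573 CPM in N2 A to E and at 213, 233, 276, 258 and 289 CPM in the double mutant. Its log2 fold change was -1.06 (SE 0.09, edgeR adjusted p 7.0e-11), and the groups were far apart. The acyl-CoA dehydrogenase gene acdh-1 fell from 1976 ± 182 to 1054 ± 182 CPM (-0.91, SE 0.11, edgeR adjusted p 1.9e-07). The hydroxyacid-oxoacid transhydrogenase gene hphd-1 fell by 0.85 (SE 0.09, edgeR adjusted p 4.7e-09) in log2. Of the canonical route, mmaa-1, which encodes a protein that handles cobalamin, fell from 139 ± 7.13 to 95.3 ± 7.59 CPM (-0.55, SE 0.08, edgeR adjusted p 7.9e-06).

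Library means of the 10 propionate genes did not overlap between N2, at 8.32 to 8.55 in log2 CPM, and egl-9 hif-1, at 7.56 to 7.99. In the smg-1 background 2 of the 10 genes were called lower (0.473% of all genes) with a median of -0.16, and in smg-2 6 were (18.6% of all genes) with a median of -0.38. The hach-1 gene was lower in both, by -0.42 (SE 0.09) and -0.97 (SE 0.09). The egl-9 single mutant was split, with 5 of the 10 called lower (21.8% of all genes), hach-1, hphd-1 and acdh-1 among them, and 4 called higher. Of 6 tested genes of gluconeogenesis and the glyoxylate cycle, 3 were called lower (4.85% of all genes), with and without egl-9 hif-1 C. These were pck-1, the pyruvate carboxylase gene pyc-1 (-0.30, SE 0.08, edgeR adjusted p 0.013, or 0.0694 with only the libraries compared) and the isocitrate lyase and malate synthase gene icl-1 (-0.52, SE 0.17, edgeR adjusted p 0.035), the last of which lost its call in 5 of the 10 fits that left out a library. A second carboxykinase gene, pck-3, was called higher (0.56, SE 0.19, edgeR adjusted p 0.038), but likewise not in 5 of those 10 fits. Of 19 glycolysis genes, 2 were called lower (10.5%, beside 4.85% of all genes) and 0 higher, with and without egl-9 hif-1 C. When other libraries were left out, 0 (without egl-9 hif-1 B) to 4 (without N2 C) were called lower.

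Genes that were called the same way with NMD intact, with smg-1 and with smg-2 rest on 3 sets of libraries that share none. There were 22 such genes higher (0.137% of all tested genes) and 10 lower (0.0623%). Higher by at least 2-fold in all 3 (0.0374%) were ftn-1, ftn-2, fat-5, lys-7, F01D5.1 and nspe-6, and lower by at least 2-fold (0.0187%) were rips-1, smf-3 and srw-85. The palmitoyl-CoA desaturase gene fat-5 (WBGene00001397, chromosome V, 17725004 to 17726818, plus strand) was at 4.82, 5.22, 4.94, 4.24 and 5.13 CPM in N2 A to E and at 18.8, 23.9, 12.9, 33.4 and 26.7 CPM in the double mutant. Its log2 fold change was 2.25 (SE 0.28, edgeR adjusted p 2.6e-07), and it was 2.65 (SE 0.29) with smg-1 and 2.37 (SE 0.27) with smg-2. In egl-9 alone fat-5 was below N2 (-1.34, SE 0.32). The gene overlaps twk-42 on the opposite strand.

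The antimicrobial lysozyme gene lys-7 was at 11.3, 9.25, 7.45, 23.5 and 15.9 CPM in N2 A to E and at 34.9, 41.0, 61.1, 47.9 and 65.5 CPM in the double mutant. The lowest double mutant was above the highest N2 library, and the log2 fold change was 1.90 (SE 0.20, edgeR adjusted p 7.1e-09), beside 1.1 (SE 0.20) with smg-1, 2.53 (SE 0.20) with smg-2 and 3.57 (SE 0.22) in egl-9. The uncharacterised gene F01D5.1 rose by 1.83 (SE 0.24), 1.25 (SE 0.24) and 1.78 (SE 0.24) in the 3 comparisons. The nematode-specific peptide gene nspe-6 was at 0.166 ± 0.172 CPM in N2 and 3.06 ± 1.14 CPM in the double mutant, and at 150 ± 9.84 CPM in egl-9. The chemoreceptor-like gene srw-85 had 20, 3, 6, 5 and 5 counts in N2 A to E and 0, 0, 1, 1 and 0 in the double mutant. It is listed at 2-fold or more by its fitted value only, since at these counts the size of the change is uncertain.

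The 3 comparisons called very different numbers of genes. The comparison with smg-1 called 143 genes (0.891%) and the one with smg-2 4745 (29.6%). Across the 16053 genes, which are not independent replicates, the log2 fold changes with NMD intact had a Pearson r of -0.11 with those in smg-1 (Spearman rho -0.06) and of 0.12 with those in smg-2 (rho 0.24). Of all tested genes, 9.65% were called higher and 4.85% lower with NMD intact. Of the 1549 genes called higher, 28 were called higher with smg-1. This is 1.81% of them, beside 0.417% of all tested genes, and 41.8% of the 67 called there. With smg-2, 299 were called higher, or 19.3% of the 1549, beside 11% of all tested genes, and 17% of the 1761 called there. Of the 778 lower genes, 20 were called lower with smg-1 (2.57%, beside 0.473% of all genes, and 26.3% of 76). With smg-2, 398 were called lower (51.2%, beside 18.6% of all genes, and 13.3% of 2984). The 537 genes with at least 2-fold higher levels had a median log2 fold change of -0.27 with smg-1 and 0.10 with smg-2. Tests of the difference itself called 898 genes (5.59%) for smg-1 and 2080 (13%) for smg-2.

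**Figure D4:**
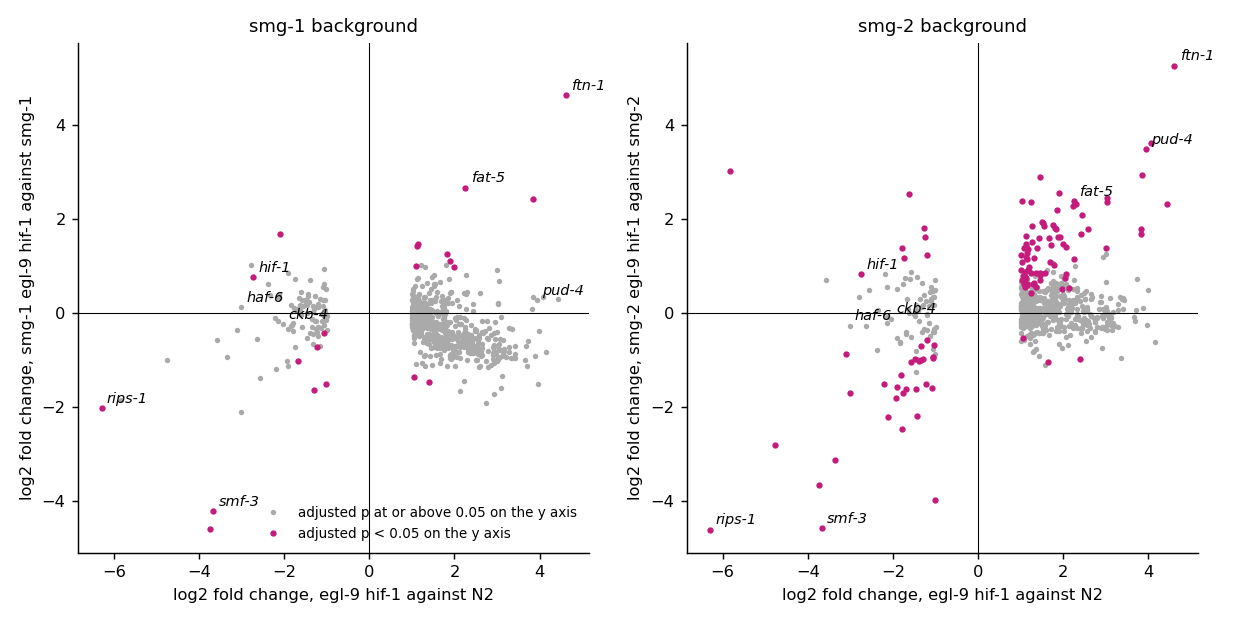
Log2 fold change of the 641 genes called with at least 2-fold change in egl-9 hif-1 against N2 (x axis), set against the log2 fold change of egl-9 hif-1 in the smg-1 background (left) and in the smg-2 background (right), with genes called on the y axis in pink. Most of the 641 genes are grey, not called on the y axis, whereas ftn-1 and smf-3 lie far from 0 on both axes in both panels, and hif-1 itself lies on opposite sides of 0.

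Many cuticle collagens were higher than in wild type. Collagens form the cuticle, the extracellular coat that the epidermis secretes at each molt. Of 148 tested cuticle collagen genes, 64 were called higher (43.2%, beside 9.65% of all genes) and 3 lower (2.03%, beside 4.85%). Their median log2 fold change was 0.91. Without egl-9 hif-1 C, 37 were called higher and 1 lower, beside 2.95% and 3.13% of all genes, with a median of 0.63. The library means of the group were 4.02 to 4.63 in log2 CPM in N2 and 4.64 to 5.86 in the double mutant, with C the highest. The adult collagen gene col-62 was at 163, 95.8, 182, 45.4 and 141 CPM in N2 A to E and at 359, 500, 933, 218 and 605 CPM in the double mutant. Its log2 fold change was 2.06 (SE 0.32, edgeR adjusted p 2.2e-05), and the lowest double mutant, D, was close to the highest N2 library. The genes col-150 (1.60, SE 0.25, edgeR adjusted p 2.2e-05) and col-7 (1.90, SE 0.33, edgeR adjusted p 9.3e-05) rose as well. Of the 3 adult cuticle markers col-7, col-19 and col-62, 2 were called higher and 0 lower, with and without egl-9 hif-1 C, and col-19 was not called. Similar collagen genes can share reads, so single members are uncertain.

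Fewer collagens were called higher in worms without NMD. In the smg-1 background 0 of the 148 collagens were called higher (0.417% of all genes) and 4 lower, and in the smg-2 background 22 higher (11% of all genes) and 7 lower. Median log2 fold changes were -0.58 and 0.03. For col-62 the effect differed from that with NMD intact by -2.16 (SE 0.44, edgeR adjusted p 0.0023) in smg-1 and -2.59 (SE 0.45, edgeR adjusted p 7.1e-05) in smg-2. The library means of the collagens were 4.68 to 6.05 in smg-1, 4.55 to 5.34 in smg-1 egl-9 hif-1, 4.55 to 5.85 in smg-2 and 4.23 to 6.00 in smg-2 egl-9 hif-1. Of 14 marker genes of the molt, 1 was called higher with NMD intact (7.14%, under the 9.65% of all genes) and 0 lower (4.85% of all genes). Their summed levels were 101 to 152 CPM in N2 and 69.5 to 227 CPM in the double mutant. Their part in the collagen result was not tested.

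Genes of epidermal and intestinal defence were examined next. The shares of all tested genes were 9.65% higher and 4.85% lower, or 2.95% and 3.13% without egl-9 hif-1 C. Of 34 epidermal antimicrobial peptide genes, 12 were called higher and 0 lower, but 2 and 0 without C. The peptide gene nlp-25 was at 0.800 to 1.90 CPM in N2 and at 5.07, 6.33, 19, 2.39 and 7.32 CPM in the double mutant A to E (log2 fold change 2.66, SE 0.53, edgeR adjusted p 7.9e-04), with C again the highest. Of 17 intestinal infection response (irg) and downstream-of-daf-16 (dod) genes, 8 were called higher and 1 lower, and 5 and 1 without C. The infection response gene irg-4 was at 14.5 to 19.5 CPM in N2 and 38.2, 50.3, 88.8, 55.9 and 98.7 CPM in the double mutant (1.88, SE 0.25, edgeR adjusted p 1.2e-06). Of 13 lysozyme genes 4 were called higher and 1 lower, or 3 and 0 without C. Of 133 C-type lectin genes 17 were higher (12.8%) and 8 lower (6.02%), near the shares of all genes, and 10 and 6 without C. Of 23 genes of the pals family, which responds to intracellular pathogens, 5 were higher and 0 lower, or 4 and 0 without C.

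Among detoxification genes, 15 of 63 UDP-glucuronosyltransferases were called higher (23.8%, beside 9.65% of all genes) and 6 lower, but 7 higher and 6 lower without C. The gene ugt-31 was at 6.42 ± 2.1 CPM in N2 and at 21.9 ± 7.04 CPM in the double mutant (log2 fold change 1.75, SE 0.18, edgeR adjusted p 4.2e-09). Of 41 glutathione S-transferases 10 were higher and 1 lower, but 2 and 1 without C. Of 56 cytochrome P450 genes 6 were higher and 6 lower, or 4 and 7 without C. Of 188 nuclear hormone receptor genes 6 were called higher (3.19%) and 16 lower (8.51%, beside 4.85% of all genes), but 1 and 9 without C, and 9 to 24 were called lower when any 1 library was left out. Of 89 neuropeptide genes 7 were higher (7.87%, under the 9.65% of all genes) and 0 lower, and 1 was higher without C. Ribosomal protein genes (1 of 79 higher and 0 lower, or 0 and 0 without C), vitellogenins (0 of 6) and genes of endoplasmic reticulum stress (0 of 14) were at or under the background. Of 11 NMD factor genes 2 were called lower, or 1 without C. These were smg-7 (-0.33, SE 0.09, edgeR adjusted p 0.011) and smg-4 (-0.24, SE 0.08, edgeR adjusted p 0.044), both of them lost when only the libraries compared were fitted (edgeR adjusted p 0.108 and 0.147).

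**Figure D5:**
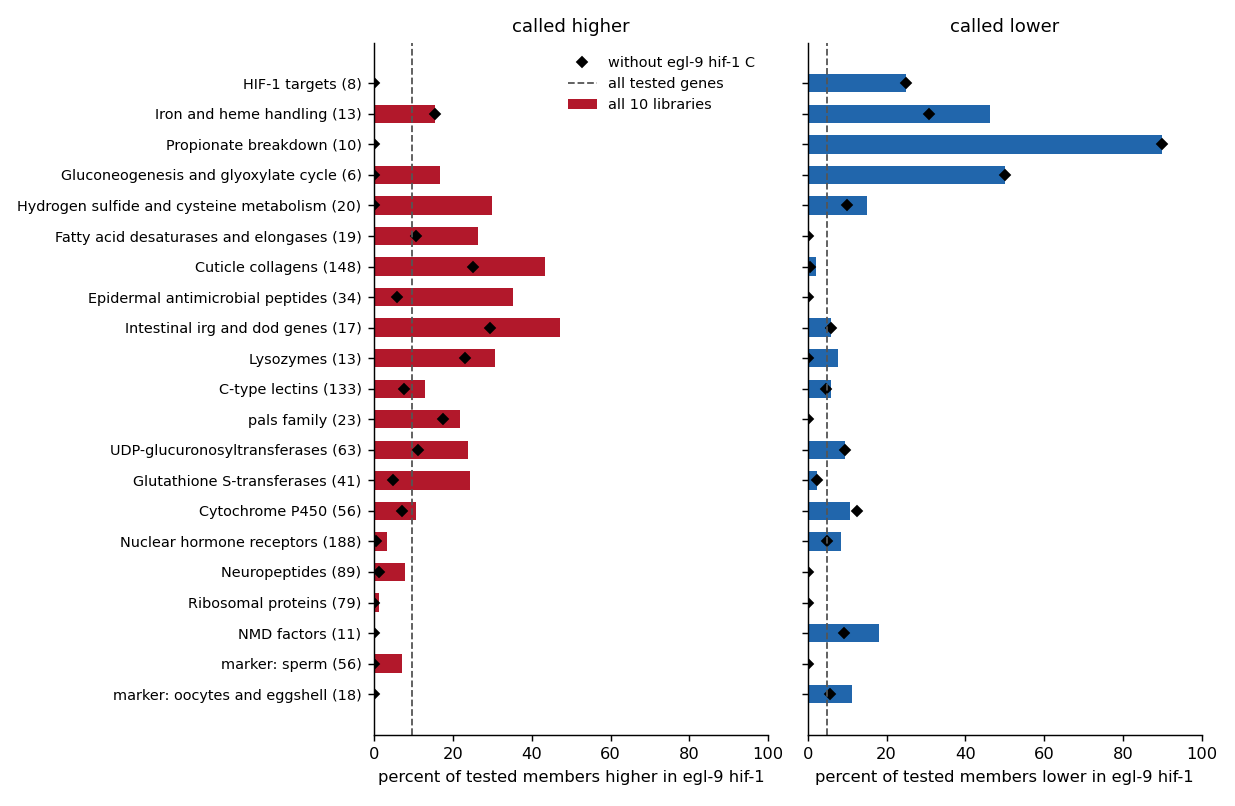
Percent of the tested members of 21 gene lists (number tested in parentheses) called higher (left) and lower (right) in the double mutant than in wild type, with diamonds for the fit without egl-9 hif-1 C and dashed lines for all tested genes (9.65% and 4.85%). Propionate breakdown has 9 of 10 members called lower with and without C, and cuticle collagens have 64 of 148 higher, or 37 without C.

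Markers of tissues and cell types were set beside these results, since in whole worms fewer cells of a type and less RNA per cell cannot be told apart. All markers of intestine, muscle, pharynx, neurons, germ line and oocytes were detected, and of the sperm markers msp-32 and nspd-8 were at 0 in all 10 libraries. Intestinal markers summed to 1411 to 1712 CPM in N2 and 1660 to 2666 CPM in the double mutant, with C the highest. Of these 6 markers 3 were called higher (9.65% of all tested genes), or 1 higher and 1 lower without C. Markers of oocytes and eggshell summed to 10478 to 12604 CPM in N2 and 6307 to 11685 CPM in the double mutant, with C the lowest. Of these 18 markers 2 were called lower (11.1%, beside 4.85% of all tested genes), or 1 without C. The 2 were the eggshell genes perm-4 (-0.40, SE 0.11, edgeR adjusted p 0.0089) and perm-2 (-0.41, SE 0.12, edgeR adjusted p 0.023). Both calls were lost when only the libraries compared were fitted (edgeR adjusted p 0.0786 and 0.102), and that of perm-2 also with NMD-intact libraries only (0.0569) and without egl-9 hif-1 C (0.0546), N2 B (0.0614) or N2 D (0.0822). Sperm markers summed to 2234 to 3741 CPM in N2 and 3239 to 5105 CPM in the double mutant. Of 56 tested, 4 were called higher (7.14%, under the 9.65% of all tested genes), or 0 without C. Muscle markers were at 6125 to 8232 and 6857 to 8597 CPM, neuronal markers at 349 to 389 and 352 to 452 CPM, and germ line markers at 2421 to 2763 and 2363 to 2780 CPM. The part of these differences in the gene groups above was not tested.

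The called genes were spread over all chromosomes. The share of tested genes called was 11.3% on chromosome I, 13.3% on II, 12.8% on III, 15.7% on IV, 16.40% on V and 17.4% on X. Called genes with at least 2-fold change were 6.08% of the tested genes of V and 5.02% of those of X, and 2.26% to 4.17% on the others. Both mutated genes lie on V. In the window from 20 to 25 Mb that holds hif-1, 10.7% of 122 tested genes were called, and 4.10% with at least 2-fold change. In the window from 10 to 15 Mb that holds egl-9, the shares were 16.3% and 5.64% of 975 genes. The shares with at least 2-fold change were highest in the windows of V from 0 to 5 Mb (7.82%) and 5 to 10 Mb (6.68%), beside 3.99% of all tested genes. These shares were not tested.

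Some called genes were close to undetected in one group. Called higher with 3 counts or fewer in every N2 library were 7 genes, and called lower with 3 counts or fewer in every double mutant library were 11. Of the former, pqn-91 had 2, 3, 0, 3 and 0 counts in N2 A to E and 11, 11, 29, 3 and 25 in the double mutant. F48G7.8 had at most 2 counts in an N2 library and 2 to 24 in the double mutant, F29D10.2 at most 3 and 4 to 20, R12E2.6 at most 1 and 0 to 17, and M01B2.13 at most 3 and 3 to 10. Of the latter, cld-1 had 0, 0, 10, 9 and 12 counts in N2 and 0 in all double mutant libraries. In N2 and in the double mutant, comt-4 had 3 to 15 and 0 to 2 counts, Y23H5A.8 3 to 18 and 0 to 2, C11D2.3 4 to 10 and 0 to 3, and oac-37 4 to 13 and 0 to 3. At these counts a size of change is not given. The cld-1 call was lost in 7 of the 10 fits that left out a library, and that of R12E2.6 without egl-9 hif-1 C (edgeR adjusted p 0.0533). With only the libraries compared, the calls of cld-1 (0.103), oac-37 (0.0773), C11D2.3 (0.0613) and M01B2.13 (0.0519) were lost. With limma on the deposited log2 values those 4, R12E2.6, comt-4 and srw-85 were not called.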

How the data were processed

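The authors deposited estimated counts (expected counts, whole as deposited) and log2(TPM + 1) values of 46926 genes in each library, per the file headers. Per the submitters' processing notes, FastQC, STAR 2.7.9a, RSEM 1.3.0, DESeq2 and the build WBcel235 were used, without their roles, and the annotation and the strand setting of counting are not given in the sources used here. Libraries were made with a directional kit, 12 amplification cycles and 75 nt paired-end sequencing (Element AVITI), per the labels' protocols.

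Counts were tested with edgeR 4.0.16 in R 4.3.3: TMM scaling, filterByExpr (16053 genes), 1 model of 9 genotype means over 45 libraries, quasi-likelihood F test, and two-sided p-values adjusted by Benjamini-Hochberg within each comparison. The comparisons were egl-9 hif-1 against N2, the same state in the smg-1 and smg-2 backgrounds, the differences between them, and egl-9 against N2 as a reference. The labels call the replicates biological without saying whether they came from separate cultures, so p-values measure the spread between these libraries, which may be technical. In data simulated for egl-9 hif-1 against N2 on 16053 genes, 74 of 100 genes changed 2-fold and 94 of 100 changed 4-fold were recovered, with 3 false calls. The simulated counts were drawn independently for each gene, so no simulated libraries stood apart as a whole, as egl-9 hif-1 C and E do. The number of false calls in the real data therefore cannot be read from them.

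Total counts limit low genes, where 3 counts or fewer per library were taken as the floor, and they cover counting error only. The 20 pairs of replicates within groups had chi-square per degree of freedom of 8.01 to 88.5, so none was merged. Gene positions and overlaps came from Ensembl release 115 (WBcel235), in which the identifiers of all 16053 tested genes were found. Members and the 48 gene lists were chosen with earlier results of these data known. The text names the mutated genes, 8 HIF-1 targets, the 10 genes each way with the smallest p among called genes with at least 2-fold change, groups that do not overlap and a mean of at least 5 CPM in the higher group, the genes called in all 3 comparisons at 2-fold or more, called genes at the floor, and up to 4 called members of a list. Alternatives were DESeq2 size factors, the DESeq2 1.42.0 Wald test, other filters on low counts, limma 3.58.1 on the deposited log2 values, a replicate block, smaller sets of libraries and each replicate left out.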

Additional observations from a re-analysis of the deposited data

Results flagged for a closer look

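Single libraries stood apart from the other 4 of their group in 11 of the 136 groups of 5 values examined, by Dixon's test with a critical ratio of 0.71. About 1 group in 20 passes by chance. In egl-9 hif-1 these were cyp-36A1 in C (8.55 CPM, others 7.24 to 7.59), gst-19 in E (0.0405 CPM, others 0), pyc-1 in D (355 CPM, others 291 to 304) and pud-3 in A (23.5 CPM, others 50.4 to 59.7). They were also F44G3.7 in B (7.25 CPM, others 3.36 to 3.87) and spds-1 in D (19.03 CPM, others 24.2 to 25.5). In N2 they were the total count of A (33169699) and, in CPM, pud-4 in D (3.47, others 0.733 to 1.17), pud-3 in D (6.74, others 1.65 to 2.54), oac-37 in E (0.867, others 0.222 to 0.395) and irg-4 in B (14.5, others 18.5 to 19.5).

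For 37 of the 55 genes of the text with enough counts, the log2 effect of egl-9 hif-1 differed between worms with and without NMD in edgeR's test of the difference (adjusted p under 0.05), for 34 with smg-1, 28 with smg-2 and 25 with both. Values are the log2 effect in the smg background minus that with NMD intact, smg-1 first. Of the genes lower with NMD intact, both differences passed for egl-9 (0.74 and 0.64), hif-1 (3.49 and 3.55), rips-1 (4.26 and 1.68), asp-12 (2.46 and 2.91), hrg-4 (1.34 and 1.13), haf-6 (3.13 and 2.74) and ckb-4 (1.80 and 1.91). The same held for asp-8 (2.08 and 2.35), smd-1 (1.48 and 1.44), F44G3.7 (1.55 and 1.37), C17F4.7 (2.04 and 1.60), acdh-1 (0.90 and 0.49) and perm-4 (0.59 and 0.63). With smg-1 alone the difference passed for nhr-57 (1.32), sqrd-1 (2.98), hach-1 (0.64), hphd-1 (0.70) and mmaa-1 (0.39), and with smg-2 alone for perm-2 (0.69). Both rips-1 and hach-1 were nevertheless called lower in each smg background. The 8 HIF-1 targets, nhr-57 and sqrd-1 among them, summed to 93.6 to 117 CPM in smg-1. In smg-1 egl-9 hif-1 the median of this sum was 82.0 CPM, but the highest library reached 234 CPM. The search for libraries that stood apart covered N2 and egl-9 hif-1 only. Whether the smg-1 differences of HIF-1-linked genes rest on that highest library was not tested.

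Of the genes higher with NMD intact, both differences passed for cth-1 (-1.2 and -1.33), asns-2 (-2.84 and -0.68), scb-1 (-1.01 and -1.48), pph-7 (-1.58 and -1.84), fbxa-192 (-1.56 and -1.59), pgp-5 (-2.23 and -1.62) and spds-1 (-1.04 and -1.27). They also passed for col-150 (-2.26 and -1.63), col-62 (-2.16 and -2.59), col-7 (-2.09 and -2.57), nlp-25 (-2.84 and -2.38) and ugt-31 (-1.52 and -1.43). With smg-1 alone the difference passed for pud-4 (-3.67), pud-2.2 (-3.51), pud-3 (-3.75) and irg-4 (-1.17). With smg-2 alone it passed for pck-3 (-0.80) and for F22B5.4 (-1.41), which was not called with NMD intact.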

How the results depend on the processing

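Of 67 genes tested in the text, 61 were called. Of these, 43 were called in the same direction under every alternative that tested them, while 18 lost the call under at least 1. Not every alternative tested every gene: the one with a mean of at least 5 CPM held 54 of the 67. The number of genes called in egl-9 hif-1 relative to N2, 2327 with all libraries, was 3651 with a replicate block, 871 when only the libraries compared were fitted and 1257 with only the libraries with NMD intact. Leaving out 1 library gave 977 (without egl-9 hif-1 C) to 3353 (without egl-9 hif-1 A), and 1360 without N2 B. The number called with at least 2-fold change, 641 with all libraries, was 348 when genes with a mean of at least 5 CPM were tested and 314 with limma on the deposited log2 values, and leaving out 1 library gave 309 (without egl-9 hif-1 C) to 865. In the smg-1 background, where 143 genes were called, the block gave 249, the libraries compared alone 95, and leaving out 1 library 110 to 152. In the smg-2 background, with 4745 called, leaving out 1 library gave 4008 to 5024. The 32 genes called the same way in all 3 comparisons became 63 with the block, 21 with only the libraries compared, and 27 to 35 without 1 library. The sign reversed for phy-2 alone, which was not called: its log2 fold change was 0.05 with all libraries, -0.015 without a filter and -0.082 with limma, and -0.076 to 0.17 when 1 library was left out. The cause of these changes was not tested.

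Nothing in the labels says that a replicate letter marks a shared batch. The correlation of deviations from the group means of libraries with the same letter was -0.057 to 0.172 between N2 and egl-9 hif-1 (above 0.1 for 2 of 5 letters), 0.028 to 0.433 with smg-1 (4 of 5) and -0.179 to 0.459 with smg-2 (3 of 5). Since it was not above 0.1 for every letter in any of the 3, the letters were not taken as pairs and the block is given as counts of calls. In the same order, 2, 8 and 5 of 10 libraries correlated best with their own letter, a hint of shared variation in the smg-1 background. Depth limits genes with 3 counts or fewer per library, whose fold changes are not given.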
